A study of Mus musculus with 12 samples.

Results

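The genes described here are 10 genes of the endoplasmic reticulum stress response, Hspa5, Hsp90b1, Calr, Pdia4, Dnajb9, Atf4, Xbp1, Ddit3, Herpud1 and Trib3. They were taken by symbol from the 27825 genes listed, and all 10 passed the filter of a mean normalized count of at least 10, as did 22238 genes in all. The endoplasmic reticulum is where secreted and membrane proteins fold. When unfolded proteins build up there, the sensors IRE1 (gene Ern1), PERK (gene Eif2ak3) and ATF6 set off the unfolded protein response: IRE1 splices Xbp1 RNA, PERK slows translation through eIF2 alpha while translation of Atf4 rises, and cleaved ATF6 enters the nucleus. Their targets include chaperones, parts of the degradation machinery and the death-linked factor CHOP (gene Ddit3). Endothelial cells use the endoplasmic reticulum heavily, since they secrete matrix and clotting proteins. Total RNA counts per gene show neither Xbp1 splicing nor eIF2 alpha phosphorylation.

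Sorted endothelial cells, which line blood and lymph vessels, came from male ROSA26-eYFP+/+ Cdh5-CreERT2+ mice. In these mice a Cre recombinase driven by Cdh5 and activated by tamoxifen switches on a yellow fluorescent protein, so every group carried the reporter and had eaten tamoxifen food, which began at an age of 6 weeks and lasted 2 weeks. Feeding then split at 8 weeks into normal chow (5.8% fat) and a high fat diet (60% fat) and went on for 12 to 13 weeks. The mesentery, a fold of membrane with the vessels that supply the gut, and the epididymal fat pads gave 12 libraries in 4 groups of 3, each library pooled from 6 mice and prepared with actinomycin D, which blocks transcription. The series title names endothelial heterogeneity lost on an obesogenic diet, so the comparisons are diet within each tissue, tissue on each diet, and whether diet acted differently by tissue (the interaction). The libraries are lettered A to C in each group. Their descriptions also carry numbers, shared by the 2 tissues at the same letter and diet: on chow A is 50, B is 51 and C is 87, and on the high fat diet A is 88, B is 52 and C is 53. The protocol text mentions 2 independent replicates, so n = 3 counts libraries, and the p-values measure the spread between these libraries.

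Library totals ran from 8348897 to 25397963 reads, and a floor of 3 reads corresponded to 2.12 to 4.22 normalized counts. The fewest reads of any of the 10 genes in a library were 87, for Trib3. Endothelial identity was checked with Pecam1, which ranged from 9680 to 12974 normalized counts in mesentery and from 3730 to 7473 in epididymal fat, and with Cdh5 at 2172 to 4822 over all libraries. A list of 14 endothelial markers summed to 130699 to 205356 in mesentery and 51219 to 111070 in epididymal fat. In the limma fit described below, 7 of these 14 were lower in epididymal fat under chow and 2 higher (adjusted p under 0.05). Their median log2 difference was -0.92. Under high fat feeding 9 were lower and 1 higher, with a median of -1.05. Markers of other cells also moved with tissue. Summed normalized counts of pancreatic acinar markers were 39142 to 265690 in mesentery and 224 to 671 in epididymal fat, and some defining acinar genes were at 0 in a whole epididymal group (Amy2b and Reg1 on chow, Prss2 and Spink1 on the high fat diet). Fibroblast markers summed to 5437 to 11493 in mesentery and 20213 to 69820 in epididymal fat. Red blood cell markers summed to 177 to 432 in mesentery and 31946 to 44022 in epididymal fat, smooth muscle and pericyte markers to 1450 to 4403 and 6745 to 25411, and adipocyte markers to 119760 to 170436 and 326893 to 601320. Mitochondrial genes took 20.6% of the values in mesentery A on chow, 5.67% to 11.5% in the other mesentery libraries and 2.5% to 5.94% in epididymal fat. Macrophage and leukocyte markers summed to 1472 to 24614 in mesentery, and in epididymal fat to 5834 to 82526 on chow and 145409 to 369093 on the high fat diet. Plasma cell markers summed to 410827 in mesentery C on the high fat diet and to 1377 to 26615 in the other libraries. Genes of the response to tissue dissociation summed to 25331 to 45745 in mesentery and 27125 to 70868 in epididymal fat. The part of these cells, of endothelial content and of handling in the differences below was not tested. More RNA per cell cannot be told apart from more cells of a type.

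Levels were compared between genes per kilobase of exon, from the GENCODE M21 annotation of GRCm38, as the mean over 12 libraries. Hspa5 was highest at 1762 normalized counts per kilobase, followed by Calr at 1410, Hsp90b1 at 1168, Xbp1 at 1115, Herpud1 at 880, Atf4 at 794, Pdia4 at 694, Ddit3 at 344, Dnajb9 at 125 and Trib3 at 124. Neighbours in this order overlapped in range over the libraries except Ddit3, at 211 to 530, and Dnajb9. Dnajb9 ran from 82.9 to 180 and Trib3 from 57.6 to 184 normalized counts per kilobase. Between libraries Atf4 varied least, 1.73-fold from lowest to highest, and Hspa5 varied most, 3.45-fold.

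The promoters of 4 of the 10 genes held an endoplasmic reticulum stress element, and they are shown because these elements tie the chaperone genes to ATF6 and XBP1. RefSeq promoters of GRCm38.p6 were searched on both strands from 250 bases before to 50 bases after each start site, and all 10 genes were found there. The element ERSE was searched as CCAAT, any 9 bases and CCACG, and ERSE-II as ATTGG, any 1 base and CCACG. ERSE matched 37 of 32851 promoters (0.113%), among them Hspa5, Calr and Hsp90b1, and ERSE-II matched 10 (0.0304%), among them Herpud1. In the sequences below, read 5′ to 3′ along the gene, capitals mark the matches, which lie on the opposite strand in Calr and in the second site of Hsp90b1. Hspa5 is chr2:34771995-34772073 on the plus strand, Calr chr8:84847045-84847123 on the minus strand, Herpud1 chr8:94386347-94386417 on the plus strand and Hsp90b1 chr10:86705503-86705686 on the minus strand.
Hspa5: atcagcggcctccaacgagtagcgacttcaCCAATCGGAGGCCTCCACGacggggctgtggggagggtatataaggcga
Calr: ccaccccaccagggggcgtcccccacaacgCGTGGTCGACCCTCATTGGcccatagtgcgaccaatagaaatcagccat
Herpud1: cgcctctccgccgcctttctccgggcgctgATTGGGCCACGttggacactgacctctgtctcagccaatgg
Hsp90b1: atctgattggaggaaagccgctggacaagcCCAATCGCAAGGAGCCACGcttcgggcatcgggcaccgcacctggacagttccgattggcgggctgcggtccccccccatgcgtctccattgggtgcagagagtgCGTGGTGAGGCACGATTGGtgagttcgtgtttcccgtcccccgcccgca
The match ended 47 bases before the start site in Hspa5, at position -47, and at -42 in Herpud1. The XBP1-linked element TGACGTGG matched 185 promoters (0.563%) and the ATF4-linked element TGATGNAAT 268 (0.816%), none of them promoters of the 10 genes. A match is a description of the sequence only, and a missing match covers only the exact letters and the stretch searched.

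None of the 10 genes passed an adjusted p of 0.05 (limma on log2(normalized count + 1), Benjamini-Hochberg over 22238 genes) in any of the 5 comparisons. The 2 largest group differences on the log2 scale were both between the tissues under the high fat diet. There the chaperone gene Calr had a mean of 3461 normalized counts in mesentery against 5921 in epididymal libraries, and the feedback gene Trib3 had 321 against 187. The chaperone gene Hspa5 had epididymal means of 7385 (chow) and 10430 (high fat) beside mesentery means of 4933 and 7058. In mesentery the mean of Atf4 was 2233 under chow against 1577 under the high fat diet. edgeR's quasi-likelihood test on recovered reads also called 0 of the 10 in each comparison, and DESeq2 called 1, Calr between the tissues on the high fat diet. Of all genes edgeR called 0.0045% for diet in mesentery, 0.13% for diet in epididymal fat, 8.92% between tissues on chow, 4.59% between tissues on the high fat diet and 0.0045% for the interaction. DESeq2, over the 13118 to 21970 genes for which it gave an adjusted p, called 0.755%, 4.29%, 17.9%, 18.2% and 0.809% in the same order. The 95% intervals of a group difference reached from 0.36 (Atf4) to 0.73 (Trib3) log2 units on either side of the estimate, so smaller differences were not resolved with 3 libraries a group.

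**Figure D1:**
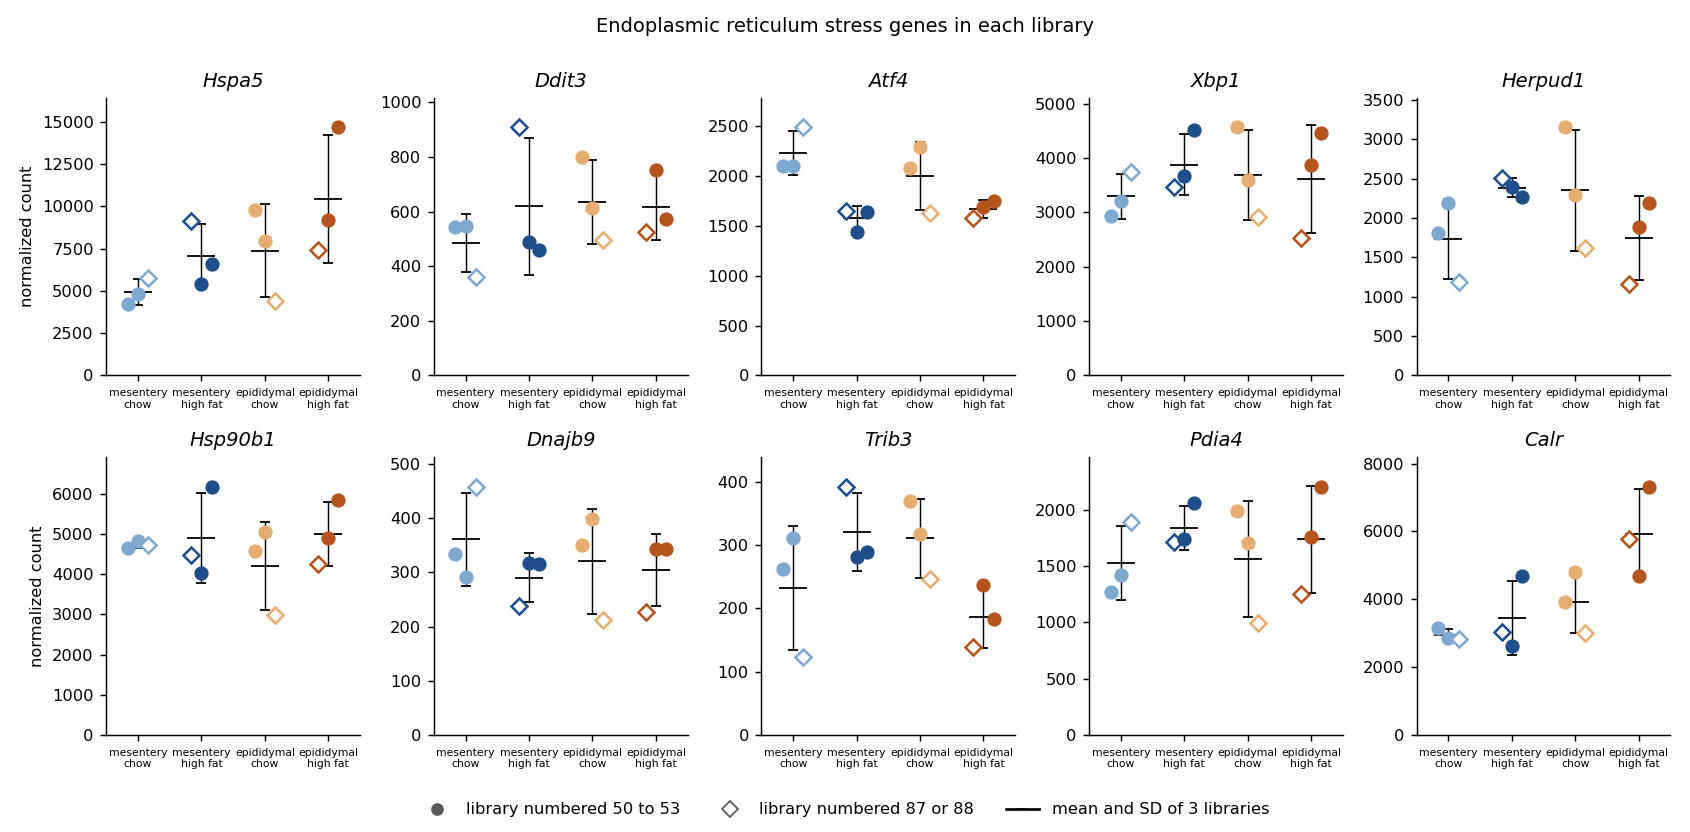
Normalized counts (y axes, linear, from 0) of the 10 genes in the 12 libraries, by group, with the mean and SD of 3 libraries; open diamonds are libraries numbered 87 and 88. In epididymal fat the open diamonds are the lowest points for 8 of the 10 genes.

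Hspa5 encodes BiP, the main chaperone of the endoplasmic reticulum and a brake on the stress sensors. In mesentery on chow its normalized counts were 4253 in A, 4805 in B and 5742 in C, and on the high fat diet 9152, 5427 and 6594. In epididymal fat they were 9800, 7936 and 4421 on chow and 7438, 9180 and 14672 on the high fat diet. The groups overlapped in all 4 comparisons: C of epididymal fat on chow, numbered 87, lay below 2 of the chow mesentery libraries, and A of mesentery on the high fat diet, numbered 88, lay above A of epididymal fat. The log2 difference between tissues was 0.52 ± 0.32 (SE, n = 3 per group) on chow with a limma adjusted p of 0.361, and 0.54 ± 0.32 on the high fat diet with a limma adjusted p of 0.399. Restricted to numbers 50 to 53, which leaves 2 libraries a group, the tissue difference was 0.96 on either diet and passed (limma adjusted p = 0.0264 for chow and 0.0396 for the high fat diet). That restriction removes the libraries numbered 87 and 88 named in the overlap, so a larger difference followed from the choice of libraries. On chow it called 4349 of all genes, against 2843 in the fit of all 12 libraries. For diet the log2 differences were 0.49 (mesentery) and 0.51 (epididymal fat), with limma adjusted p of 0.913 and 0.992.

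Calr encodes calreticulin, a calcium-binding chaperone for glycoproteins. Its counts in mesentery were 3161, 2866 and 2827 on chow (A to C) and 3049, 2636 and 4699 on the high fat diet. The epididymal libraries had 3914, 4818 and 2996 on chow and 5778, 4674 and 7311 on the high fat diet. On the high fat diet the single mesentery library that reached the epididymal range was C. It is the one with the high plasma cell sum, whose part here was not tested. The tissue difference there was 0.80 ± 0.25 log2 units (SE, n = 3 per group; 95% interval 0.26 to 1.33), the lowest p of the 10 genes in any comparison (unadjusted 0.00672, limma adjusted 0.0685). Without mesentery C it was 1.04 with an adjusted p of 0.0234, and it passed under 6 of 23 alternative settings, with adjusted p from 0.00877 to 0.282. On chow the tissue difference was 0.38 ± 0.25 (limma adjusted p = 0.386). The diet difference in epididymal fat was 0.60 ± 0.25 (limma adjusted p = 0.570), with 1 chow library, B at 4818, above 1 high fat library, B at 4674.

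Hsp90b1 encodes GRP94, the endoplasmic reticulum member of the HSP90 family, and its row carries the biotype of a retained intron in the deposited file. Its counts were 4658, 4835 and 4719 in mesentery on chow and 4491, 4035 and 6171 on the high fat diet, again with C highest. Its epididymal counts were 4578, 5063 and 2975 on chow and 4256, 4893 and 5848 on the high fat diet. Every group pair overlapped, and its log2 differences lay between -0.21 and 0.27. Without mesentery C the diet difference in mesentery was -0.15 in place of 0.02, and leaving out each library in turn gave -0.15 to 0.15.

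Pdia4 encodes ERp72, a disulfide isomerase. Its counts were 1272, 1416 and 1892 in mesentery on chow and 1708, 1735 and 2062 on the high fat diet, with chow C inside the high fat range. In epididymal fat they were 1988, 1700 and 995 on chow and 1251, 1757 and 2200 on the high fat diet, the widest spread of 1 group against its mean being on chow (1561 ± 511, SD, n = 3). Dnajb9 encodes ERdj4, a co-chaperone of BiP and a target of XBP1. Its counts were 335, 292 and 458 in mesentery on chow and 238, 317 and 316 on the high fat diet. The epididymal counts were 351, 399 and 211 on chow and 227, 344 and 343 on the high fat diet. For both genes all groups overlapped and the largest log2 difference between groups was -0.30, for Dnajb9 and diet in mesentery (95% interval -0.91 to 0.31).

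Atf4 encodes the transcription factor whose translation rises when eIF2 alpha is phosphorylated. In mesentery its counts were 2103, 2107 and 2491 on chow and 1655, 1436 and 1640 on the high fat diet, so all 3 high fat libraries lay below all 3 chow libraries. The means were 2233 ± 223 and 1577 ± 123 (SD, n = 3 each). The log2 difference was -0.50 ± 0.17 (SE; 95% interval -0.86 to -0.14), with an unadjusted p of 0.00984 and a limma adjusted p of 0.647. In epididymal fat the counts were 2088, 2289 and 1627 on chow and 1577, 1695 and 1749 on the high fat diet, a log2 difference of -0.24 ± 0.17 (limma adjusted p = 1) with overlapping groups. The interaction was 0.26 (95% interval -0.25 to 0.76), so the diet differences of the tissues were not shown to differ.

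Xbp1 encodes the transcription factor that IRE1 activates by splicing. Its counts were 2932, 3217 and 3742 in mesentery on chow and 3467, 3663 and 4510 on the high fat diet, where the highest was C. In epididymal fat they were 4562, 3586 and 2919 on chow and 2528, 3862 and 4453 on the high fat diet. All groups overlapped and the 4 log2 differences lay between -0.13 and 0.23. Without mesentery C on the high fat diet, the highest of its group, the diet difference in mesentery was 0.12 in place of 0.23. Leaving out each library in turn gave 0.12 to 0.33. Xbp1 is also a factor of plasma cell secretion, and the part of plasma cells in its values was not tested. Mesentery C was also the highest of its high fat group for Calr, Hsp90b1 and Pdia4. It was the lowest for Ddit3 and Herpud1, and in between for Hspa5, Atf4, Dnajb9 and Trib3.

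Ddit3 encodes CHOP, a factor induced through ATF4 that is linked to cell death in prolonged stress. Its counts were 543, 547 and 362 in mesentery on chow and 908, 489 and 459 on the high fat diet. Epididymal libraries gave 800, 613 and 494 on chow and 525, 753 and 572 on the high fat diet. Mesentery A on the high fat diet stood above the other 11 libraries. Without it the diet difference in mesentery was -0.01 in place of 0.31 ± 0.29 (limma adjusted p = 0.951). Ddit3 overlaps Mars, at a mean of 353 normalized counts, on the opposite strand; whether counting used strand is not given in the sources used here, so its level is uncertain.

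Herpud1 encodes a membrane protein of endoplasmic reticulum-associated degradation, and Trib3 a pseudokinase that ATF4 and CHOP induce and that dampens them. Herpud1 counts were 1804, 2195 and 1186 in mesentery on chow and 2503, 2389 and 2265 on the high fat diet, where every library lay above every chow library. In epididymal fat they were 3150, 2296 and 1613 on chow and 1159, 1883 and 2189 on the high fat diet. Herpud1 overlaps the antisense gene Gm15890, at a mean of 13.3 normalized counts, which bears on its level as strand does for Ddit3. Trib3 counts were 263, 311 and 122 in mesentery on chow and 392, 281 and 288 on the high fat diet. Epididymal Trib3 counts were 370, 317 and 246 on chow and 139, 238 and 183 on the high fat diet, so the high fat libraries lay below all chow libraries and below all mesentery libraries on the same diet. For both genes the diet difference had the opposite sign in the tissues. Herpud1 differed by 0.51 ± 0.29 log2 units in mesentery and by -0.43 ± 0.29 in epididymal fat (SE, n = 3 per group). The interaction of Herpud1 was -0.94 (95% interval -1.83 to -0.05; unadjusted p = 0.0405, limma adjusted p = 1.00). Trib3 differed by 0.55 ± 0.34 in mesentery and by -0.75 ± 0.34 in epididymal fat (limma adjusted p = 0.899 and 0.687). The interaction of Trib3 was -1.30 (95% interval -2.33 to -0.27; unadjusted p = 0.0173, limma adjusted p = 0.878), and in the libraries numbered 50 to 53 its diet difference in mesentery was -0.01.

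**Figure D2:**
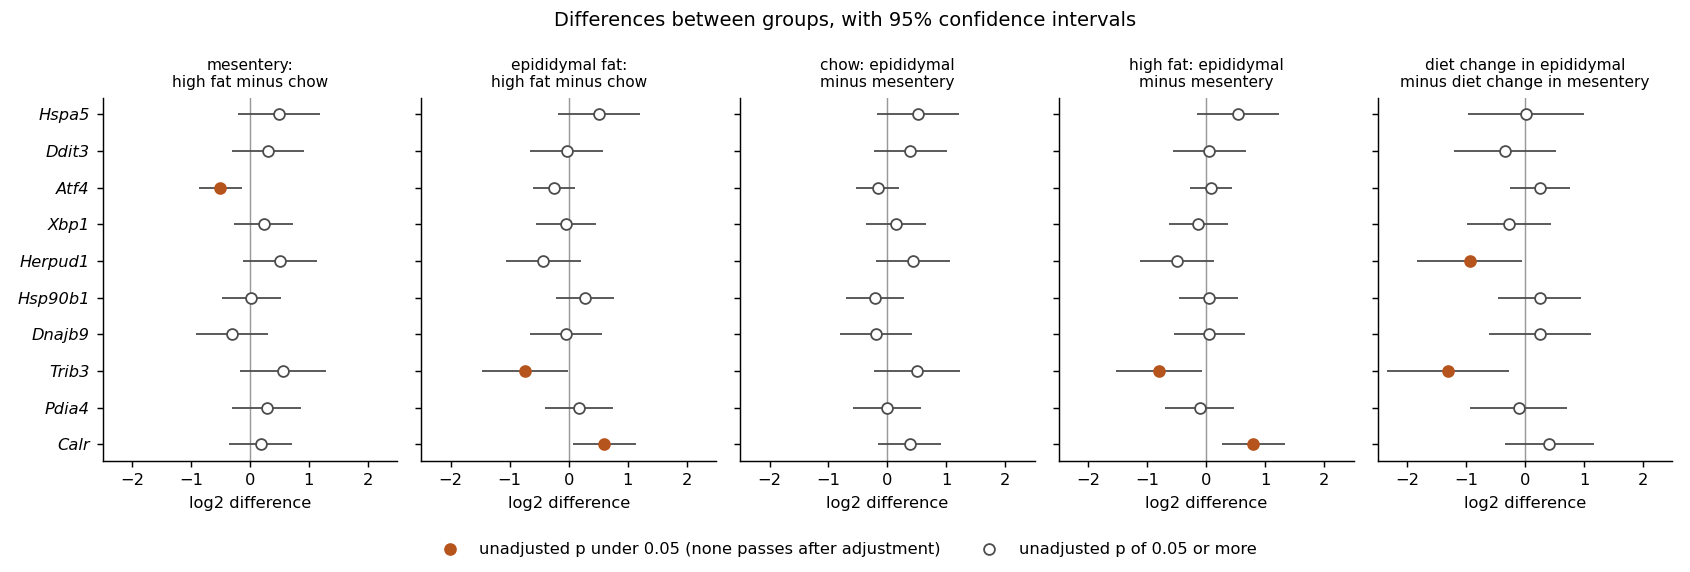
Log2 differences of the 10 genes (points) with 95% confidence intervals (lines) in the 5 comparisons, from limma on log2(normalized count + 1), 3 libraries per group; filled points have an unadjusted p under 0.05. The filled points are Atf4 for diet in mesentery, Trib3 and Calr for diet in epididymal fat and for tissue on the high fat diet, and Herpud1 and Trib3 for the interaction.

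The counts of the 10 genes were set against all genes tested. For diet in mesentery 0 of 10 were called, where 3 genes of all (0.0135%) were. There 1 of 10 (Atf4, lower) had an unadjusted p under 0.05 against 6.15% of all genes, and 2 of 10 (Herpud1 higher, Atf4 lower) had groups that did not overlap against 9.61%. For diet in epididymal fat 0 of 10 were called against 0.549% of all genes. There 2 of 10 (Calr higher, Trib3 lower) had an unadjusted p under 0.05 against 6.94%, and 1 of 10 (Trib3) did not overlap against 13.5%. Between tissues on chow 0 of 10 were called against 12.8%, 0 of 10 had an unadjusted p under 0.05 against 25.4%, and 0 of 10 did not overlap against 28.7%. Between tissues on the high fat diet 0 of 10 were called against 8.34%. There 2 of 10 (Calr higher, Trib3 lower) had an unadjusted p under 0.05 against 21%, and 2 of 10 (Trib3 and Herpud1, both lower) did not overlap against 26.4%. For the interaction 0 of 10 were called against 0.0045%, and 2 of 10 (Herpud1 and Trib3, both lower) had an unadjusted p under 0.05 against 4.71%. The median log2 difference of the 10 genes and of all genes was 0.26 and -0.002 for diet in mesentery, -0.04 and 0.10 for diet in epididymal fat, 0.26 and -0.08 for tissue on chow, and 0.05 and 0.06 for tissue on the high fat diet. The interaction had medians of -0.04 and 0.11. The comparisons share groups, so their values are not independent of each other. Scaling all libraries to the same total moved the median of all genes by 0.13, -0.14, 0.08, -0.18 and -0.27 in the order given. Under that scaling Trib3 passed between the tissues on the high fat diet (log2 difference -0.98, limma adjusted p = 0.0405).

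Within epididymal fat the values of the 10 genes were also read by the number in the descriptions, a split that crosses diet and was examined after the values were seen. The libraries numbered 87 and 88, C on chow and A on the high fat diet, both lay below all 4 libraries numbered 50 to 53 for 8 of the 10 genes (all except Trib3 and Calr), against 18.2% of all genes. In mesentery this held for 0 of 10 genes, against 7.05% of all genes. What the number stands for is not given in the labels. The same 2 epididymal libraries had the lowest dissociation sums of that tissue (27125 and 37327, against 50874 to 70868 in the other 4) and the fewest reads (12523942 and 12424431, against 18411287 to 25397963). Their normalized totals were also the lowest there, at 1.28e+07 and 1.40e+07 against 1.51e+07 to 1.80e+07. Yet they had the most genes with reads in that tissue, 27558 and 27691 against 23264 to 26779. The part of handling and depth in the values by number was not tested. A limma fit with a coefficient for the number range within each tissue, beside the 4 group means, placed all 10 genes below 0 in epididymal fat (48.3% of all genes were below 0), with a median log2 difference of -0.56 against 0.04 for all genes. There 6 of 10 had an unadjusted p under 0.05 (11.4% of all genes were lower at that level) and 0 of 10 had an adjusted p under 0.05, against 0.998% of all genes. Because the split was examined after these values were seen, the p-values by number, here and below, describe it and cannot test it. The lowest limma adjusted p was 0.0527, for Pdia4 at -0.77 ± 0.18 (SE). The coefficient was -0.82 ± 0.21 for Hspa5 (limma adjusted p = 0.0532), -0.77 ± 0.21 for Herpud1 (limma adjusted p = 0.0549) and -0.59 ± 0.18 for Xbp1 (limma adjusted p = 0.0643). Leaving out mesentery B or C on chow, or A, B or C on the high fat diet, gave 1 to 6 calls among the 10 genes, beside 5.74% to 22.7% of all genes. These deletions left the epididymal differences as they were (Hspa5 at -0.82) and changed only the shared estimate of the spread. Leaving out mesentery A on chow or any 1 epididymal library gave 0 calls among the 10 genes, beside 0% to 0.036% of all genes. A pseudocount of 5 gave 4 (14.6% of all genes) and edgeR 5 (9.29% of all genes). When libraries were scaled to the same total, which moved the median of all genes by 0.29, the differences of Atf4 and Calr were 0.02 each and the other 8 stayed below 0.

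For libraries that share a number, the tissue difference was also taken pair by pair. Epididymal minus mesentery log2 differences of Hspa5 were 1.20, 0.72, 0.76 and 1.15 for the numbers 50, 51, 52 and 53, and -0.38 and -0.30 for 87 and 88. Pdia4 gave 0.64, 0.26, 0.02 and 0.09 against -0.93 and -0.45. Dnajb9 gave 0.07, 0.45, 0.11 and 0.12 against -1.11 and -0.06. For Hspa5, Pdia4 and Dnajb9 the sign in all 4 pairs numbered 50 to 53 was opposite to that in both pairs numbered 87 and 88, a pattern that 4.65% of all genes showed. Calr was above 0 in all 6 pairs, from 0.08 at 87 to 0.92 at 88. In the fit, the number range by tissue term was below 0 for 10 of 10 genes (45.8% of all genes), with an unadjusted p under 0.05 for 5 (5.49% of all genes were lower at that level). None of the 10 passed after adjustment (0.00899% of all genes did), the lowest limma adjusted p being 0.167, so a change of the tissue difference with the number range was not shown for any of them.

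**Figure D3:**
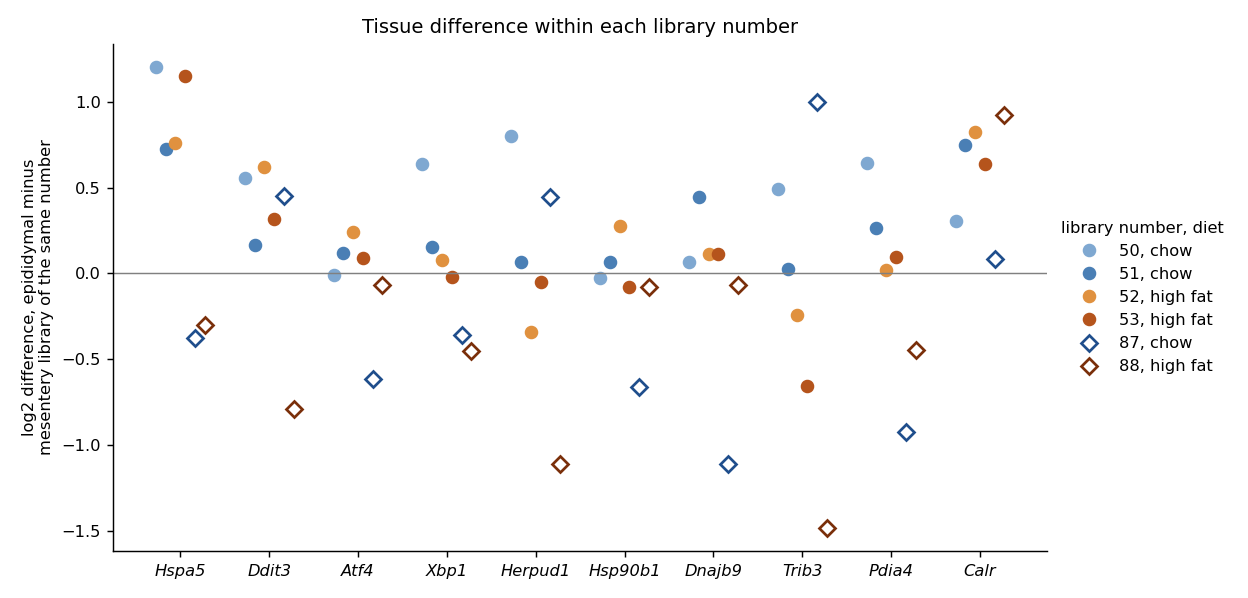
Log2 difference of the normalized count + 1 between the epididymal and the mesentery library that share a number, for the 10 genes; circles are numbers 50 to 53 and open diamonds 87 and 88, each point being 1 pair of libraries. Hspa5 is above 0 in the 4 pairs numbered 50 to 53 and below 0 in the other 2.

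How the 10 genes varied together over the 12 libraries was described with Pearson's r on log2(normalized count + 1); the libraries share groups, number ranges and scaling, so r carries no p here. The 45 pairs had a median r of 0.25, and 9 were negative. The highest was Xbp1 with Pdia4 at 0.90, followed by Herpud1 with Trib3 at 0.87, Hsp90b1 with Pdia4 at 0.77 and Hspa5 with Calr at 0.74. Atf4 had a negative r with Herpud1, Trib3, Hspa5, Ddit3 and Calr, the lowest being -0.15 with Calr, and the lowest of all was Trib3 with Calr at -0.27. Of 10585 genes whose mean reached 100, those most like Hspa5 were Tent2 (0.95), Pdia3 (0.93), a disulfide isomerase of the endoplasmic reticulum, and Grwd1 (0.93). Those most like Ddit3 were N4bp3 (0.91), Btbd10 (0.91) and Rrp1 (0.89). For Xbp1 they were Pdia4 (0.90), Rsl1d1 (0.89) and Ddx49 (0.88). Pdia3 had 7192 normalized counts in epididymal C on chow and 11033 to 17644 in the epididymal libraries numbered 50 to 53.

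**Figure D4:**
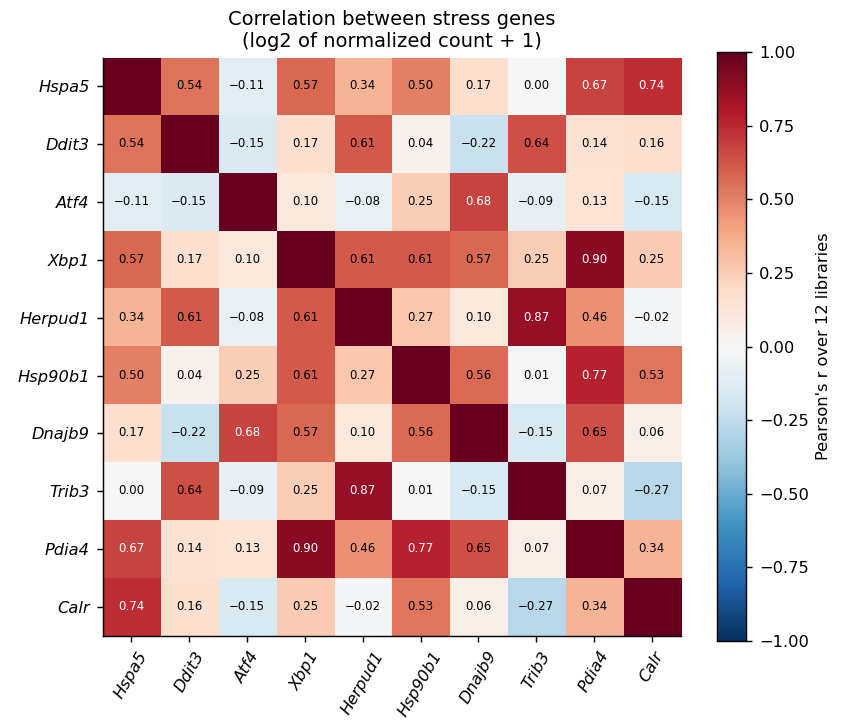
Pearson's r between the 10 genes over the 12 libraries, on log2(normalized count + 1); red is positive and blue negative. The highest cell off the diagonal is Xbp1 with Pdia4 (0.90) and the lowest Trib3 with Calr (-0.27).

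The sensors upstream of the 10 genes did not pass in any comparison. Ern1 had 24.9 to 117 normalized counts over the libraries, Eif2ak3 63.3 to 147 and Atf6 196 to 636. Atf6 stood at 636 in mesentery C on chow, the library of fewest reads, and at 196 to 286 elsewhere. Its log2 difference for diet in mesentery was -0.64 ± 0.32 (limma adjusted p = 0.851).

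Other genes of stress and protein folding, 145 in 9 lists, were read against the same background, and 143 were tested. Diet called 0 of 143 in either tissue, and the interaction called 0. At an unadjusted p under 0.05 there were 9 for diet in mesentery (6.29%, against 6.15% of all genes), 15 for diet in epididymal fat (10.5%, against 6.94%) and 4 for the interaction (2.80%, against 4.71%). DESeq2 called 0 in mesentery, 6 of 136 in epididymal fat (4.41%, against 4.29% of all genes) and 0 in the interaction, and edgeR 0 in each. Between tissues on chow 10 were higher and 4 lower in epididymal fat (9.79% called, against 12.8% of all genes). The high fat diet gave 9 higher and 3 lower (8.39%, against 8.34%). The share called of the 143 genes together was thus near or under the background. The median log2 difference of the 28 tested ATF4 and CHOP targets was 0.70 (chow) and 0.43 (high fat diet), against -0.08 and 0.06 for all genes.

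Among the 28 tested ATF4 and CHOP targets, 5 were higher and 1 lower in epididymal fat on chow (21.4% called, against 12.8% of all genes). With the high fat diet 4 were higher and 1 lower (17.9% called, against 8.34% of all genes). The enzymes of serine synthesis Psat1 and Phgdh were among the targets called. Psat1 had 60.5 to 85.4 normalized counts in mesentery and 303 to 486 in epididymal fat on chow, a log2 difference of 2.33 ± 0.35 (limma adjusted p = 0.000833), and on the high fat diet 84.0 to 204 and 289 to 534, a difference of 1.64 ± 0.35 (limma adjusted p = 0.0126). Phgdh had 223 to 286 in mesentery and 586 to 953 in epididymal fat on chow, a difference of 1.70 ± 0.29 (limma adjusted p = 0.00184). The stress cytokine Gdf15 was higher on both diets, by 2.28 ± 0.56 (chow) and 2.12 ± 0.56 (high fat diet). With the high fat diet its 3 epididymal libraries had 247 to 259 normalized counts and the mesentery libraries 33.3 to 122. The secreted glycoprotein Stc2 (3.37 ± 1.04) and the amino acid transporter subunit Slc7a5 (3.19 ± 0.90) passed on chow at low levels, with 2.7 to 19.7 and 4.2 to 15.9 normalized counts in mesentery. Of 22 alternatives Stc2 passed in 8, with a limma adjusted p of 0.0486 in the fit reported here, and Slc7a5 in 16. On the high fat diet the transcription factors Atf3 (2.12 ± 0.54) and Cebpb (1.55 ± 0.39) passed. Atf3 had 1299 to 2391 normalized counts in epididymal fat and 295 to 679 in mesentery on that diet; it is an early-response gene and also 1 of the genes in the dissociation sum above. The tryptophanyl-tRNA synthetase Wars1, listed under its older name Wars, was lower on both diets (-0.79 ± 0.22 and -0.86 ± 0.22).

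In the other lists Kdelr3, a receptor that returns chaperones to the endoplasmic reticulum, was higher in epididymal fat, with 237 to 684 normalized counts against 26.8 to 89.6 on chow (log2 difference 3.07 ± 0.48, limma adjusted p = 0.00107) and 314 to 497 against 80.4 to 165 on the high fat diet (1.97 ± 0.48, limma adjusted p = 0.0237). The XBP1-linked element named above matched 6 of 115 promoters of list genes, those of Kdelr3, Sec24d, Txndc11, Txndc5, Ube2j1 and Vcp. Of these genes only Kdelr3 was called on chow, and a part of XBP1 was not tested. Of the same 115 promoters ERSE matched 7 (Canx, Creld2, Derl3, Dnajc3, Ero1b, Pdia6 and Syvn1) and ERSE-II 0. The ATF4-linked element matched 2, those of Fgf21 and Nupr1. The prolyl isomerase Fkbp14 (1.31 ± 0.36) and the small heat shock protein Hspb8 (1.07 ± 0.29) were higher on chow. The prolyl isomerase Fkbp2 (0.90 ± 0.23), the endoplasmic reticulum protein Erp29 (0.73 ± 0.19) and the mitochondrial chaperonin Hspe1 (0.73 ± 0.16) were higher on the high fat diet. The death receptor Tnfrsf10b was lower in epididymal fat, with 101 to 156 normalized counts against 418 to 645 on chow (-2.03 ± 0.29, limma adjusted p = 0.00051) and 109 to 164 against 213 to 387 on the high fat diet (-1.16 ± 0.29, limma adjusted p = 0.0248). The eIF2 alpha phosphatase subunit Ppp1r15b (-0.91 ± 0.24) and Casp12 (-0.76 ± 0.21), a caspase of the endoplasmic reticulum, were lower on chow, and the heat shock factor Hsf1 (-0.87 ± 0.25) on the high fat diet. Hsf1, with a limma adjusted p of 0.0470, passed in 9 of 23 alternatives and stood at -0.51 with the libraries numbered 50 to 53 alone. Of the 23 alternatives Erp29 passed in 14, and Ppp1r15b and Casp12 in 15 each. Of the 23 gene differences named from the lists, 4 passed in every alternative, those of Kdelr3, Psat1, Phgdh and Tnfrsf10b on chow, and edgeR kept 9 of the 23. The 20 other chaperones and 21 genes of endoplasmic reticulum-associated degradation gave 2 and 0 calls on chow (10% and 0%, against 12.8% of all genes). On the high fat diet they gave 1 and 0 (5% and 0%, against 8.34%). edgeR called 7 list genes on chow in place of 14 (4.90%, against 8.92% of all genes), and 3 in place of 12 with the high fat diet (2.10%, against 4.59%). On chow, 7 passed without mesentery A, 9 without mesentery B, 5 without epididymal A and 4 without epididymal B. The number called of all genes also fell there, from 2843 to 1659 without mesentery A, 1523 without epididymal A and 1516 without epididymal B. With the high fat diet, 7 passed without mesentery A, 3 without mesentery B, 7 without mesentery C, 5 without epididymal B and 0 without epididymal C. All genes called on that diet fell from 1854 to 1194 without mesentery A, 815 without mesentery B and 728 without epididymal C.

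**Figure D5:**
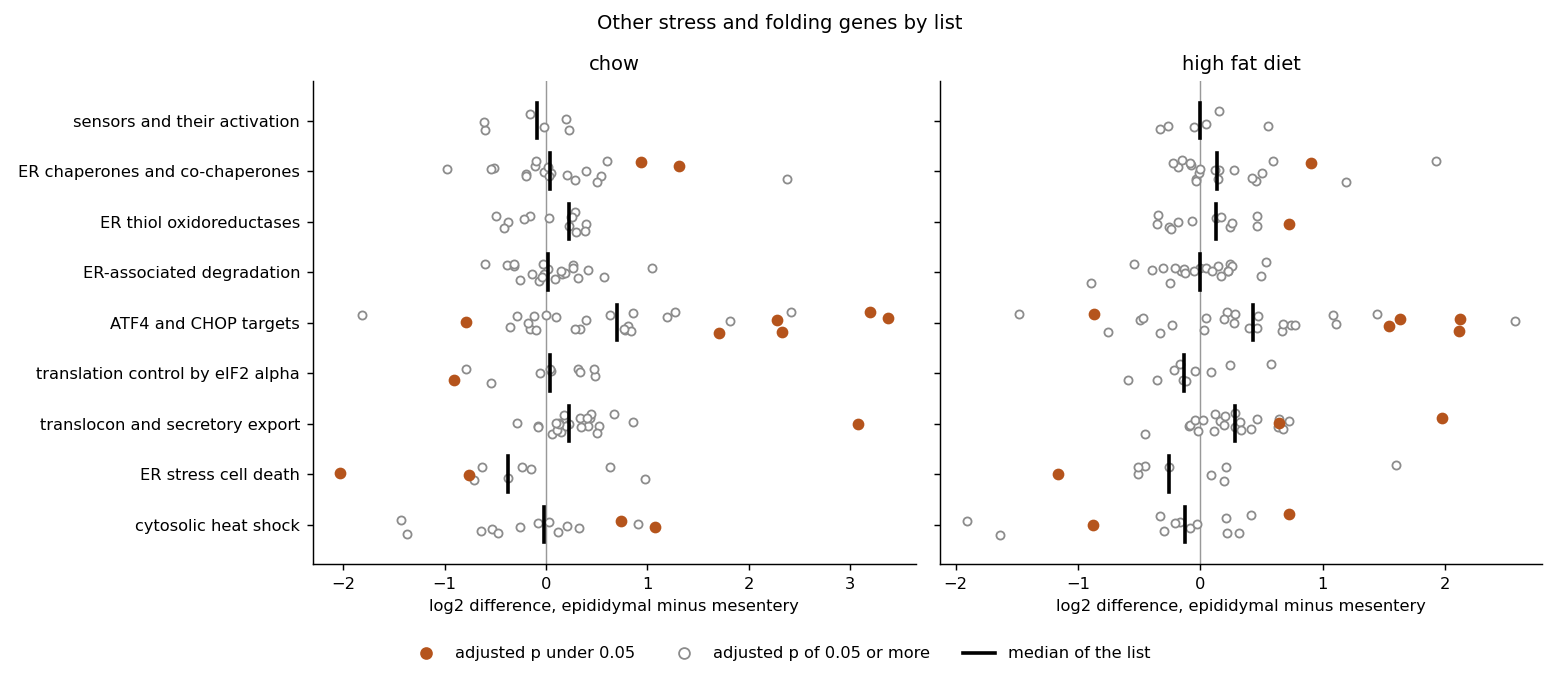
Log2 differences between epididymal fat and mesentery on chow (left) and on the high fat diet (right) for the tested genes of the 9 lists; points are genes, filled where the adjusted p is under 0.05, and bars are the medians of the lists. The ATF4 and CHOP targets have medians of 0.70 (left) and 0.43 (right).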

How the data were processed

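The 12 libraries are bulk RNA-seq of sorted cells, grouped by the sample titles. Per the file headers and the values, the authors deposited a non-negative signal per gene, counts divided by a size factor. The submitters' processing notes name STAR 2.7.9a, featureCounts, Subread, DESeq2 1.34.0 and mm39, with no role given; strand use is not given in the sources used here. In each library all values were whole multiples of 1 step (100% whole at a tolerance of 0.001), and these steps equalled median-of-ratios size factors to 2.78e-15, so reads could be recovered. Totals were 8348897 to 25397963 reads; floors cover counting error only. Per the labels, nothing ties the 3 libraries of a group to separate experiments.

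From these values limma 3.58.1 (R 4.3.3) was fitted to log2(normalized count + 1) for 22238 genes with a mean of at least 10, with a mean for each of 4 groups, a variance trend and Benjamini-Hochberg adjustment within each of 5 contrasts; differences are on that scale, which understates low genes. It was checked on simulated data. Alternatives were a pseudocount of 5, no filter, a mean of at least 50, edgeR 4.0.16 and DESeq2 1.42.0 on recovered reads, totals made equal, a replicate block, the number range as covariate, the libraries numbered 50 to 53 alone, 2 groups per fit, array weights and leaving out each library. The 10 genes and the lists were chosen with earlier results of these data known. Other genes were named by rule: list genes with an adjusted p under 0.05 and 50 or more normalized counts on average in the higher group, up to 8 each way, the 3 sensors, and the 3 genes most correlated with Hspa5, Ddit3 and Xbp1. Of 145 list genes 144 were found, 3 under another name. Promoters are from RefSeq, GRCm38.p6, exon lengths from GENCODE M21; no coordinates of the files' build were used.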

Additional observations from a re-analysis of the deposited data

Results flagged for a closer look

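For 3 of the 10 genes every epididymal-mesentery pair numbered 50 to 53 moved one way and both pairs numbered 87 and 88 the opposite way, as did 4.65% of all genes. The mean log2 tissue difference of the pairs numbered 87 and 88, minus that of the pairs numbered 50 to 53, was -1.30 for Hspa5, -0.77 for Dnajb9 and -0.94 for Pdia4. The split was chosen after the values were seen, so the p-values below describe it and cannot test it. Each number range holds chow and high fat pairs. In limma's test of the number range by tissue term, adjusted over all genes, the p was 0.167 for Hspa5, 0.320 for Dnajb9 and 0.214 for Pdia4.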

How the results depend on the processing

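Over 83 values of single genes and 1827 recomputed values, 1582 kept their direction and their side of an adjusted p of 0.05. With the sign kept, 121 no longer passed and 49 newly passed. The other 75 took the other sign, none of them a value that had passed. Among these 75, Pdia4 for tissue on chow with array quality weights passed at its new sign (0.41, limma adjusted p = 0.0039). The cause of these changes was not tested.

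The letters did not pair the libraries across diets, where the correlation of same-letter deviations was 0.00 in mesentery and -0.30 in epididymal fat on average. The shared numbers gave 0.38 between tissues on chow (0.03 to 0.58 over the 3 pairs) and -0.04 on the high fat diet, so the replicate block was not the main fit; it called 1 of the 10 genes between tissues on the high fat diet and 2 genes of all in the interaction, and changed no other count by over 1.5 times. Of the 23 list gene differences named above, 3 no longer passed with the block (Stc2 at an adjusted p of 0.0508, Ppp1r15b at 0.0505 and Hsf1 at 0.0604). The depth of 87 reads or more for each of the 10 genes in each library left the spread between libraries as the limit in the intervals given above.

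edgeR called of the 10 genes 5 for the number range in epididymal fat (9.29% of all genes). Of all genes it called 1 for diet in mesentery, 29 for diet in epididymal fat and 1021 for tissue on the high fat diet. Of the list genes it called 7 for tissue on chow and 3 for tissue on the high fat diet. Under edgeR the sign of the log2 difference turned for tissue on chow Pdia4 at 0.10, for the interaction Hspa5 at -0.043. DESeq2 called of the 10 genes 1 for tissue on the high fat diet, of all genes 150 for diet in mesentery, 563 for diet in epididymal fat, 2931 for tissue on the high fat diet and 130 for the interaction and of the list genes 6 for diet in epididymal fat and 21 for tissue on the high fat diet. Under DESeq2 the sign of the log2 difference turned for tissue on chow Pdia4 at 0.029, for tissue on the high fat diet Ddit3 at -0.0014, for the interaction Hspa5 at -0.011. A pseudocount of 5 called of the 10 genes 4 for the number range in epididymal fat (14.6% of all genes). A mean of at least 50 called of the 10 genes 1 for tissue on the high fat diet, of all genes 7 for diet in mesentery and 3 for the interaction and of the list genes 1 for diet in epididymal fat. Equal library totals called of the 10 genes 1 for tissue on the high fat diet. Under equal library totals the sign of the log2 difference turned for tissue on chow Pdia4 at 0.084, for tissue on the high fat diet Ddit3 at -0.14, Atf4 at -0.10, Hsp90b1 at -0.15 and Dnajb9 at -0.13, for the interaction Hspa5 at -0.26, Atf4 at -0.022, Hsp90b1 at -0.029 and Dnajb9 at -0.023, for the number range in epididymal fat Atf4 at 0.017 and Calr at 0.017. The replicate block called of the 10 genes 1 for tissue on the high fat diet and of all genes 2 for the interaction. The number range as covariate called of the 10 genes 1 for tissue on the high fat diet and of the list genes 1 for diet in epididymal fat. The restriction to numbers 50 to 53 called of the 10 genes 1 for tissue on chow and 1 for tissue on the high fat diet, of all genes 20 for diet in mesentery, 31 for diet in epididymal fat, 4349 for tissue on chow and 11 for the interaction and of the list genes 24 for tissue on chow. Under the restriction to numbers 50 to 53 the sign of the log2 difference turned for diet in mesentery Ddit3 at -0.20, Dnajb9 at 0.019 and Trib3 at -0.0054, for diet in epididymal fat Xbp1 at 0.036, for tissue on chow Atf4 at 0.055, Hsp90b1 at 0.021, Dnajb9 at 0.26 and Pdia4 at 0.45, for tissue on the high fat diet Xbp1 at 0.029 and Pdia4 at 0.056, for the interaction Hspa5 at -0.0080, Ddit3 at 0.11 and Dnajb9 at -0.14. A fit of only the compared groups called of all genes 1 for diet in mesentery and of the list genes 1 for diet in epididymal fat. Array quality weights called of the 10 genes 1 for diet in mesentery, 2 for diet in epididymal fat, 5 for tissue on chow and 3 for tissue on the high fat diet, of all genes 1489 for diet in mesentery, 2340 for diet in epididymal fat, 15123 for tissue on chow, 4581 for tissue on the high fat diet and 742 for the interaction and of the list genes 8 for diet in mesentery, 24 for diet in epididymal fat, 101 for tissue on chow, 33 for tissue on the high fat diet and 2 for the interaction. Under array quality weights the sign of the log2 difference turned for diet in epididymal fat Xbp1 at 0.17, for tissue on chow Atf4 at 0.074, Hsp90b1 at 0.056, Dnajb9 at 0.17 and Pdia4 at 0.41, for tissue on the high fat diet Xbp1 at 0.12 and Pdia4 at 0.15, for the interaction Hspa5 at -0.061. The array weights were 38.0 for mesentery A on chow and 0.198 to 4.337 for the other libraries.

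Leaving out each library in turn, the called number of the 10 genes ranged from 0 to 1 for tissue on the high fat diet and 0 to 6 for the number range in epididymal fat. For the number called of all genes the range was 1 to 37 for diet in mesentery, 23 to 176 for diet in epididymal fat, 1516 to 3278 for tissue on chow, 728 to 2508 for tissue on the high fat diet and 1 to 20 for the interaction. For the number called of the list genes the range was 0 to 1 for diet in epididymal fat, 4 to 15 for tissue on chow and 0 to 14 for tissue on the high fat diet. The log2 differences that took both signs without a library ranged, for diet in mesentery Ddit3 -0.0054 to 0.49, Hsp90b1 -0.15 to 0.15 and Calr -0.056 to 0.36, for diet in epididymal fat Ddit3 -0.20 to 0.15, Xbp1 -0.22 to 0.19, Dnajb9 -0.32 to 0.15 and Pdia4 -0.12 to 0.39, for tissue on chow Xbp1 -0.020 to 0.30, Hsp90b1 -0.36 to 0.023, Dnajb9 -0.38 to 0.075 and Pdia4 -0.21 to 0.29, for tissue on the high fat diet Ddit3 -0.13 to 0.36, Xbp1 -0.30 to 0.11, Hsp90b1 -0.087 to 0.22, Dnajb9 -0.083 to 0.25 and Pdia4 -0.30 to 0.10, for the interaction Hspa5 -0.31 to 0.26, Dnajb9 -0.020 to 0.45 and Pdia4 -0.40 to 0.11.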
